A study of Mus musculus with 6 samples.

Results

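Transcripts for retinoid uptake, binding, synthesis and reception were measured in primary uterine stromal cells by RNA-seq. They came from 9 genes, taken by name for these roles. The genes were Stra6, Crabp1, Crabp2, Aldh1a1, Aldh1a2, Dhrs3, Rara, Rarb and Rarg, of 28552 genes with a count in at least 1 library. Cells came from mice aged 8 to 12 weeks on day 4, which the sample labels call pregnancy and the isolation protocol calls pseudopregnancy. They were plated for 4 h and then 2 h in fresh medium before RNA was taken. The WT group (3 libraries) is described by the study as carrying floxed Pbrm1 alleles without Cre, and the Pbrm1 cKO group (3 libraries) carries those alleles with Cre expressed from the progesterone receptor locus (Pgr). That driver is active in the progesterone receptor-expressing cells of the uterus, epithelium and stroma alike, and in other reproductive tissues such as the ovary, so the deletion is not specific to stromal cells. Pbrm1 encodes a subunit of PBAF, a SWI/SNF chromatin remodeler. A preparation pooled 5 to 10 uterine horns according to the labels, which repeat the same WT isolation text for both groups. The study calls the replicates biological, but no source says how animals or preparations were divided among libraries. The p-values thus measure the spread between these libraries, which may not be independent preparations.

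Retinol reaches cells bound to a plasma carrier and can enter through the receptor STRA6. Retinol dehydrogenases oxidize it to retinaldehyde, DHRS3 reduces retinaldehyde back to retinol, and the ALDH1A enzymes oxidize retinaldehyde irreversibly to retinoic acid. CRABP1 and CRABP2 bind retinoic acid in the cytoplasm, and the receptors RARA, RARB and RARG bind it in the nucleus as heterodimers with retinoid X receptors. Rarb and Dhrs3 are also known as genes that retinoic acid induces in many cell types. In the uterus, ALDH1A2 is known from the stroma.

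Total counts ranged from 13253575 to 18338667 per library, and 3 counts, the limit that a count of 0 allows, corresponded to 0.164 to 0.226 CPM (counts scaled to the library total). These limits cover counting error only. Pbrm1 itself stood, in replicate order, at 1354, 1385 and 1677 normalized counts in WT libraries and at 397, 459 and 451 in those of Pbrm1 cKO (DESeq2 log2 fold change -1.76, SE 0.13, adjusted p = 5.19e-40), which matched the labels. Stromal markers were abundant in all libraries, with a summed level of 7688 to 8812 CPM in WT and 6064 to 6427 in Pbrm1 cKO over 14 genes led by Vim, Col1a1 and Pdgfra. Markers of other cells were present too, and no marker of any list was at 0 in all libraries. The 14 leukocyte genes, led by Lyz2, Cd74 and Csf1r, summed to 275 to 596 CPM in WT and 2445 to 2572 in Pbrm1 cKO, and 11 of the 12 that could be tested were higher in Pbrm1 cKO. In these bulk samples, fewer cells of a type and less RNA per cell cannot be told apart. WT libraries also varied more than Pbrm1 cKO libraries (biological coefficient of variation 0.16 against 0.0465). Endothelial markers summed to 120 to 342 CPM in WT and 112 to 125 in Pbrm1 cKO, epithelial markers to 133 to 239 and 267 to 281, smooth muscle markers to 3847 to 4167 and 3681 to 3817, perivascular markers to 186 to 282 and 256 to 277, and mesothelial markers to 35.3 to 40.3 and 42.5 to 44.3. Gene by gene, 5 of 10 smooth muscle markers were called lower and 0 higher (median log2 fold change -0.60). For endothelial markers it was 4 lower and 1 higher of 10 (-0.85), and for perivascular markers 1 and 1 of 6 (-0.87). Of 14 tested epithelial markers, 0 were lower and 5 higher (0.70), and of 7 mesothelial markers 0 and 0 (0.70). WT replicate 1 had the lowest endothelial, leukocyte and epithelial sums of the WT libraries. Values without it are therefore given where a call or a direction changed, and for Dhrs3. For other genes, such as Aldh1a3 and Rarres2, leaving it out can still change the size of the fold.

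All 9 retinoid genes passed the filter on low counts. Of these, 5 were lower in Pbrm1 cKO cells (Crabp1, Aldh1a1, Aldh1a2, Rarb and Rarg), 1 was higher (Dhrs3) and 3 did not pass an adjusted p of 0.05 (Stra6, Crabp2 and Rara). Falls ranged from 1.46-fold (Rarg) to 9.18-fold (Crabp1), and the rise of Dhrs3 was 2.11-fold. Of the 17474 genes tested, 15.2% were called lower, 15.9% higher and 31.1% in either direction. Values of WT and Pbrm1 cKO libraries did not overlap for 7 of the 9 genes, against 48.6% of all genes tested. Crabp1, Aldh1a1, Rarb and Dhrs3 were called with an absolute log2 fold change of at least 1, as were 11.2% of all genes tested. The median log2 fold change was -0.81 over the 9 genes and -0.00 over all genes tested. The plot of normalized counts by library shows each value.

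**Figure D1:**
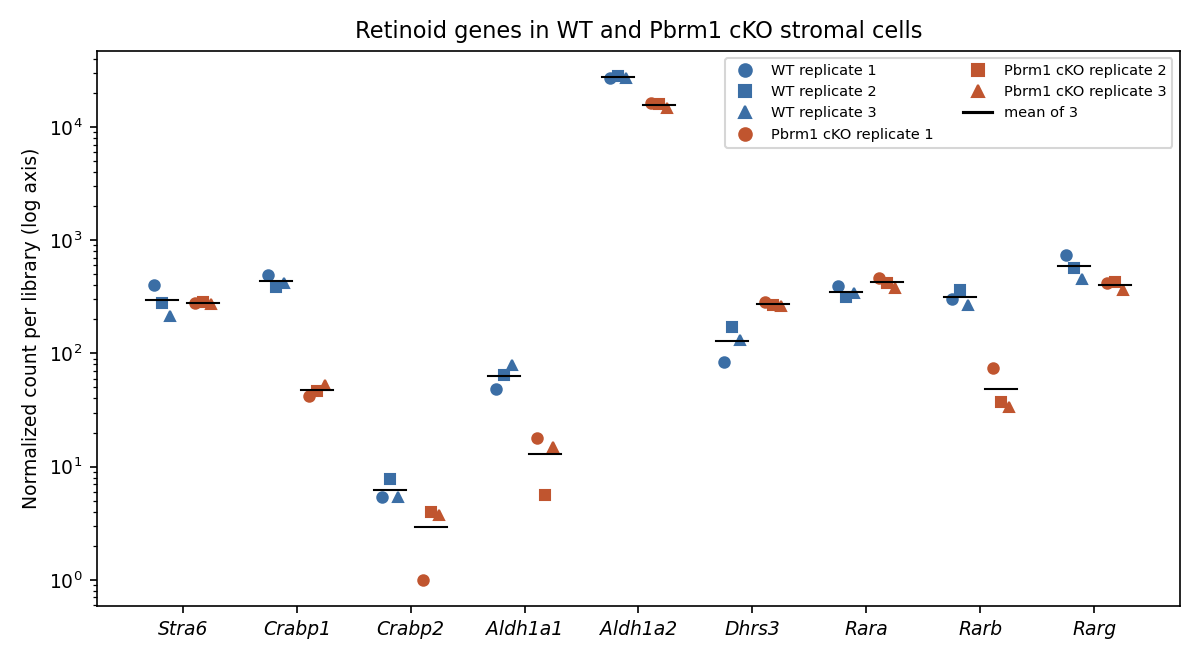
Normalized counts of the 9 retinoid genes in each library on a log axis; symbols mark the replicate, blue is WT, orange is Pbrm1 cKO, and black lines are the means of 3 libraries. Groups lie apart for all but Stra6 and Rara, and the widest gaps are those of Crabp1 and Rarb.

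The sequences upstream of 4 genes are shown because these genes include the steepest falls (Crabp1, Rarb), the most abundant member (Aldh1a2) and the one called higher (Dhrs3). Each is a RefSeq promoter window of 300 bases on GRCm38.p6, from 250 bases before to 50 after a transcription start, read 5′ to 3′ along the gene's strand. Capitals in Rarb mark the arms of a spaced direct repeat of the kind found in retinoic acid response elements. GNTCA is the searched part of each arm. Outside such a repeat GNTCA is left in lower case, and it occurs so in Rarb and in other windows. The other windows hold no such repeat and so no capitals. Crabp1 is at chr9:54764498-54764797 (plus strand), Rarb at chr14:16575427-16575726 (minus strand), Aldh1a2 at chr9:71215539-71215838 (plus strand) and Dhrs3 at chr4:144892577-144892876 (plus strand).
Crabp1: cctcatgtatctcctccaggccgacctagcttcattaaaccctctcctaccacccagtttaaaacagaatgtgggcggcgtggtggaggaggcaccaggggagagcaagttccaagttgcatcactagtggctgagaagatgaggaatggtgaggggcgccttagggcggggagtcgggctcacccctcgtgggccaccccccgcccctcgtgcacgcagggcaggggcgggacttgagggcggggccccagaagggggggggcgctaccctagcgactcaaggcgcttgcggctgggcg
Rarb: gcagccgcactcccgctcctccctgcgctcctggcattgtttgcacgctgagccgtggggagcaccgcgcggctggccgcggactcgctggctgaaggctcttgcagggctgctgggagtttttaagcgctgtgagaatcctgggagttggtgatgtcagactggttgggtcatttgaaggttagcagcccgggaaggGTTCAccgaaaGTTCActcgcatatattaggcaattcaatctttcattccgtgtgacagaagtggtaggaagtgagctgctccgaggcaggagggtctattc
Aldh1a2: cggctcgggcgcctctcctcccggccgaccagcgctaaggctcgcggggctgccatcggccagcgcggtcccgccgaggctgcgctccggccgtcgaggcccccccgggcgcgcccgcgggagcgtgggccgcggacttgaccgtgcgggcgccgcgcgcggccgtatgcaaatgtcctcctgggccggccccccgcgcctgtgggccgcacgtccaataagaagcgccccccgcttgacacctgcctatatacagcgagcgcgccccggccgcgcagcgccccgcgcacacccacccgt
Dhrs3: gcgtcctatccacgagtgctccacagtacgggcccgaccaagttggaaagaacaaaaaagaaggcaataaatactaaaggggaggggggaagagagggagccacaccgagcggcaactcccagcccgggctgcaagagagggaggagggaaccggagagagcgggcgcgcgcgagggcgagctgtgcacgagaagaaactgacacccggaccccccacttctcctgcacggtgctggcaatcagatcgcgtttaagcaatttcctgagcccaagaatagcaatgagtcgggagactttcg

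Repeats were searched on both strands, with N and the first base of each arm, just before GNTCA, left free: GNTCANNGNTCA, GNTCANNNGNTCA and GNTCANNNNNNGNTCA, for arms spaced by 1, 2 and 5 bases. They occurred in 1.26%, 1.12% and 0.861% of 32851 RefSeq promoter windows of the same length, and a window can hold more than 1 of them. Promoter windows were matched for 8 of the 9 genes (18 windows), all but Crabp2. The only match among them was in Rarb, with arms spaced by 5 bases at chr14:16575513-16575528, 52 to 37 bases before the start. A match describes letters in a window and was not tested for binding. The GC content of the 4 windows was 65% for Crabp1, 57.7% for Rarb, 78% for Aldh1a2 and 58.7% for Dhrs3, against a median of 52.7% over all windows. Dhrs3 has 2 other windows, at 45% and 45.3%.

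Synthesis came first in abundance. Aldh1a2 (chr9:71215789-71296243, GRCm38 as in the count table), which encodes the main retinoic acid-producing enzyme of many embryonic tissues, had 27044, 28259 and 27239 normalized counts in WT, against 16264, 15900 and 14851 in Pbrm1 cKO. Every Pbrm1 cKO library was far below every WT library, and replicates of each group lay close together. The mean fell from 27514 ± 653 (SD, n = 3) to 15672 ± 733, which is 57% of WT (log2 fold change -0.81, SE 0.08, 95% CI -0.97 to -0.66, adjusted p = 2.9e-23). Per length, Aldh1a2 stood at 816 ± 19.4 RPKM (normalized counts scaled to gene length and to 1 library size common to all libraries) in WT, rank 28 of 28552 genes, and at 465 ± 21.8 RPKM in Pbrm1 cKO. It thus remained the most abundant of the 9 genes in both groups, 22.5 times the next in WT and 71.3 times the next in Pbrm1 cKO. The summed stromal markers, given above, were also lower in Pbrm1 cKO, with 7 of 14 called lower, 1 higher and a median log2 fold change of -0.25, and their part in the falls of Aldh1a2 and the other genes was not tested.

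Aldh1a1 (chr19:20492715-20643462), a second retinaldehyde dehydrogenase, was scarce. Normalized counts were 48.1, 64.4 and 78.9 in WT, against 17.8, 5.59 and 15 in Pbrm1 cKO. The groups did not overlap, although Pbrm1 cKO replicate 2 rested on 7 reads. The mean was 63.8 ± 15.4 in WT and 12.8 ± 6.38 in Pbrm1 cKO, 4.99-fold lower (log2 fold change -2.34, SE 0.44, 95% CI -3.20 to -1.49, adjusted p = 1.07e-06). Of its 50-base words, 3.06% also occur in 1 other gene, which was not identified here. The related gene Aldh1a7 averaged 0.726 normalized counts in WT and 0.533 in Pbrm1 cKO.

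Aldh1a3, the remaining ALDH1A enzyme and no member of the group of 9, moved the other way. It had 26.7, 127 and 133 normalized counts in WT, against 506, 500 and 535 in Pbrm1 cKO (log2 fold change 2.43, SE 0.64, adjusted p = 0.000847). In WT replicate 1 it was far below the other WT libraries. Summed per length over Aldh1a1, Aldh1a2 and Aldh1a3, the level was 818 ± 19.9 RPKM in WT and 472 ± 21.5 in Pbrm1 cKO (57.7% of WT; exact permutation p = 0.1, two-sided, the smallest that 3 against 3 libraries allow). Aldh1a2 made up 99.7% of this sum in WT and 98.4% in Pbrm1 cKO, and Aldh1a3 0.169% and 1.59%. The summed leukocyte markers and the summed epithelial markers were, like Aldh1a3, lowest in WT replicate 1 and higher in every Pbrm1 cKO library than in any WT library, and their part in its rise was not tested.

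Dhrs3 (chr4:144892827-144928209), whose product returns retinaldehyde to retinol, was the only one of the 9 genes called higher. Normalized counts were 83.4, 171 and 131 in WT, against 283, 268 and 263 in Pbrm1 cKO. WT replicate 1 was the lowest library, and all Pbrm1 cKO libraries lay above all WT libraries. The mean went from 128 ± 43.8 to 271 ± 10.5, 2.11-fold higher (log2 fold change 1.08, SE 0.23, 95% CI 0.63 to 1.54, adjusted p = 3.06e-05). Without WT replicate 1 the log2 fold change was 0.85 (adjusted p = 3.7e-05). Against a fold change of 0.58 on the log2 scale, the fold used by the study, and at an adjusted p of 0.1, Dhrs3 did not pass (adjusted p = 0.363). The leukocyte marker sum ran with it, lowest in WT replicate 1 (275 CPM, against 596 and 574 in WT replicates 2 and 3) and higher in every Pbrm1 cKO library. The epithelial marker sum did the same (133, 239 and 226 CPM in WT, 267, 278 and 281 in Pbrm1 cKO), and the part of either in the result was not tested.

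Of the 9 genes, Crabp1 had the largest change. Crabp1 (chr9:54764748-54773110), which encodes a cytoplasmic protein that holds retinoic acid and promotes its turnover, had 495, 387 and 415 normalized counts in WT, against 42.4, 46.3 and 52.5 in Pbrm1 cKO. The 2 groups were tight and wide apart. The mean fell from 432 ± 55.8 to 47.1 ± 5.1, 9.18-fold lower (log2 fold change -3.20, SE 0.20, 95% CI -3.58 to -2.81, adjusted p = 4.25e-57). Per length, it went from 36.2 ± 4.67 to 3.94 ± 0.427 RPKM.

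Crabp2 (chr3:87948666-87953376), whose product delivers retinoic acid to the receptors, was near the limit of detection. Raw counts were 5, 7 and 5 in WT, against 1, 5 and 4 in Pbrm1 cKO, or 5.34, 7.77 and 5.4 against 0.987, 4 and 3.75 normalized counts. Normalized values did not overlap, but the difference did not pass the threshold (log2 fold change -1.06, SE 0.95, 95% CI -2.93 to 0.81, adjusted p = 0.45). The interval holds changes in both directions. Crabp1 accounted for 99.1% of the summed CRABP level per length in WT and 96.5% in Pbrm1 cKO, and that sum went from 36.5 ± 4.62 to 4.09 ± 0.494 RPKM (11.2% of WT; exact permutation p = 0.1, two-sided).

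Stra6 (chr9:58063788-58153996), the retinol uptake receptor, had 404, 281 and 213 normalized counts in WT, against 279, 284 and 273 in Pbrm1 cKO. All 3 Pbrm1 cKO libraries lay inside the WT range, which spread widely (coefficient of variation 32.4% against 1.91%). The means were 299 ± 96.9 and 279 ± 5.33 (log2 fold change -0.10, SE 0.22, 95% CI -0.53 to 0.32, adjusted p = 0.783). Without WT replicate 1 the log2 fold change was 0.17 (adjusted p = 0.477).

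**Figure D2:**
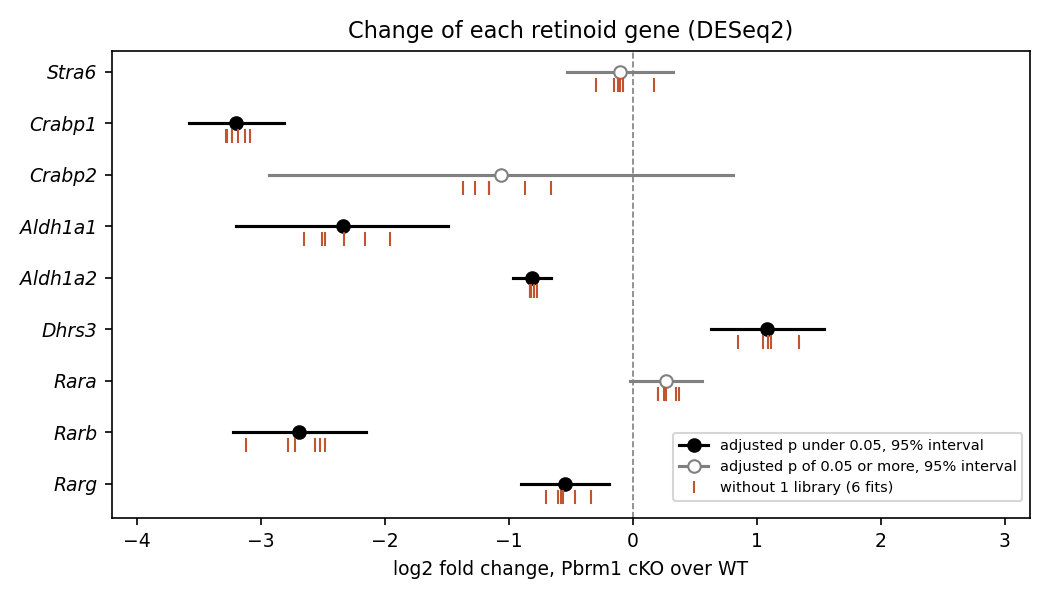
Log2 fold change of each retinoid gene, Pbrm1 cKO over WT, with its 95% interval; filled points passed an adjusted p of 0.05, and orange ticks are the 6 fits that each leave out 1 library. Ticks of Crabp1 run from -3.28 to -3.09 and those of Rarb from -3.12 to -2.48, whereas the ticks of Stra6 fall on both sides of 0.

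The receptors differed from each other. Rarb (chr14:16430839-16819156), the receptor gene that retinoic acid itself induces in many cells, had 300, 366 and 270 normalized counts in WT, against 75, 37.6 and 33.8 in Pbrm1 cKO. Even the highest Pbrm1 cKO library, replicate 1, was well under the lowest WT library. The mean fell from 312 ± 49.1 to 48.8 ± 22.8, 6.4-fold lower (log2 fold change -2.69, SE 0.27, 95% CI -3.22 to -2.15, adjusted p = 7.64e-21). Without Pbrm1 cKO replicate 1 the log2 fold change was -3.12. Rarb lies 14.2 Mb from Pbrm1 on the same chromosome. Its 3′ end overlaps Top2b on the opposite strand, and counting was strand-specific; Top2b had 3231 normalized counts in WT and 2933 in Pbrm1 cKO (log2 fold change -0.14, adjusted p = 0.372).

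Rarg (chr15:102234938-102257517) had 746, 568 and 457 normalized counts in WT, against 416, 431 and 365 in Pbrm1 cKO. The groups did not overlap, but WT replicate 3 was close to Pbrm1 cKO replicate 2. The mean fell from 591 ± 146 to 404 ± 34.8, 68.5% of WT (log2 fold change -0.55, SE 0.18, 95% CI -0.90 to -0.19, adjusted p = 0.011). This call was lost without WT replicate 1 (log2 fold change -0.34, adjusted p = 0.0584), without Pbrm1 cKO replicate 1 (-0.56, adjusted p = 0.0531) and without Pbrm1 cKO replicate 3 (-0.47, adjusted p = 0.095).

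Rara (chr11:98927818-98974942) had 395, 314 and 342 normalized counts in WT, against 467, 423 and 381 in Pbrm1 cKO. Pbrm1 cKO replicate 3 lay below WT replicate 1, so the groups overlapped. The means were 350 ± 41.4 and 424 ± 42.9 (log2 fold change 0.27, SE 0.15, 95% CI -0.02 to 0.56, adjusted p = 0.158). Without WT replicate 1 it was called higher (log2 fold change 0.37, adjusted p = 0.0403).

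The makeup of the receptor transcripts was compared next. Per length, Rarb supplied 17.7%, 25.3% and 21.7% of the summed receptor level in WT and 6.51%, 3.47% and 3.58% in Pbrm1 cKO. Rara supplied 28.1%, 26.2% and 33% in WT and 48.8%, 47.2% and 48.7% in Pbrm1 cKO. The groups did not overlap in either share (p = 0.1 for each by a two-sided exact permutation test, the smallest that 3 against 3 libraries allow). The share of Rarg was 49.4% ± 4.54 in WT and 47.2% ± 2.37 in Pbrm1 cKO (exact permutation p = 0.6, two-sided). The summed level was 18.7 ± 2.89 RPKM in WT and 13.5 ± 1.35 in Pbrm1 cKO (72.3% of WT, exact permutation p = 0.1, two-sided).

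**Figure D3:**
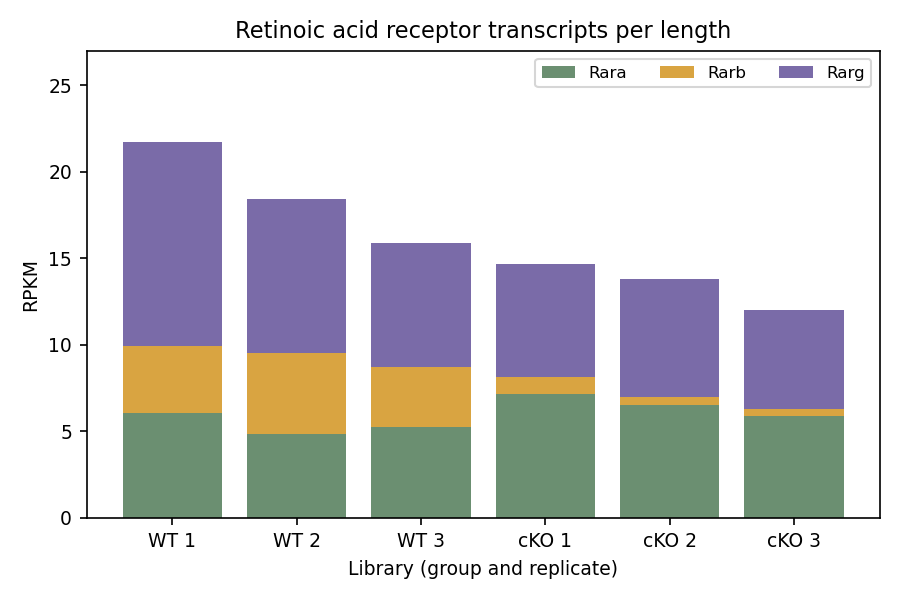
Level per length (RPKM) of the 3 retinoic acid receptors, stacked, in each WT and Pbrm1 cKO (cKO) library. The Rarb segment narrows from 21.5% of the bar on average in WT to 4.52% in Pbrm1 cKO, and the summed level is 15.9 to 21.7 RPKM in WT and 12 to 14.7 in Pbrm1 cKO.

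Ordered by level per length in WT, Aldh1a2 (816 RPKM) was followed by Crabp1 (36.2), Rarg (9.31), Rara (5.39), Rarb (3.98), Stra6 (3.45), Dhrs3 (2.94), Aldh1a1 (0.868) and Crabp2 (0.314). Library ranges of Rarb and Stra6 overlapped, as did those of Stra6 and Dhrs3, so their order is not settled. In Pbrm1 cKO the order was Aldh1a2 (465 RPKM), Rara (6.52), Rarg (6.37), Dhrs3 (6.23), Crabp1 (3.94), Stra6 (3.21), Rarb (0.622), Aldh1a1 (0.174) and Crabp2 (0.148). There, Rara, Rarg and Dhrs3 overlapped in turn, as did Aldh1a1 and Crabp2. The highest level was 2603 times the lowest in WT and 3143 times in Pbrm1 cKO.

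Profiles over the 6 libraries were compared between genes by the root mean square distance of log2 (normalized count + 1) after centring, among 10984 genes with a mean of at least 50. The 3 profiles nearest to that of Crabp1 were those of Dkk2 (distance 0.158), Slc7a3 (0.167) and Cdc6 (0.173). Nearest to Dhrs3 were Dnase2a (0.08), Adap2 (0.0966) and H2-T23 (0.0998).

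Other genes of the retinoid pathway were taken from 5 lists of 53 genes, of which 40 could be tested. In Pbrm1 cKO, 13 were higher, 6 were lower and 21 did not pass, with a median log2 fold change of 0.24. These counts and those of each list read against the 15.9% higher and 15.2% lower of all genes tested, and the share lower was near that background. Among 8 tested genes for uptake, binding and storage, 2 were higher, 2 were lower, and the median was -0.16. Stra6l, a homolog of Stra6, went from 5.45 ± 2.91 to 73.3 ± 5.17 normalized counts (log2 fold change 3.75, adjusted p = 1.82e-13), and Fabp5, which encodes a lipid carrier that can also bind retinoic acid, from 268 ± 57.9 to 673 ± 53 (1.33, adjusted p = 1.46e-13). Both were lowest in WT replicate 1 and higher in every Pbrm1 cKO library than in any WT library, as were the leukocyte and epithelial sums, whose part was not tested. Lrat, whose product esterifies retinol for storage, had 5, 17 and 11 raw counts in WT and 0 in each Pbrm1 cKO library. This was at least 4.42-fold lower against a floor of 3 counts per library (adjusted p = 0.000169). Lrat received no adjusted p without WT replicate 2 or with the replicate number as a block.

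Among 11 tested retinol and retinal oxidoreductases, 1 was higher and 3 were lower, and the median was -0.16. The rise was in Dhrs9, from 7.27 to 23.6 normalized counts (log2 fold change 1.70, adjusted p = 0.00958). Rdh12 went from 32.3 to 7.94 (-2.03, adjusted p = 0.000354), Adh7 from 25 to 5.43 (-2.21, adjusted p = 0.000861) and the abundant Adh5 from 1858 to 1478 (-0.33, adjusted p = 0.00585). Rdh10, which encodes the main retinol dehydrogenase of the embryo, had 844 ± 144 normalized counts in WT and 751 ± 8.6 in Pbrm1 cKO (-0.17, adjusted p = 0.413), and was called lower without WT replicate 1 (-0.31, adjusted p = 0.012). The Dhrs9 call was lost without WT replicate 3 (adjusted p = 0.0504), Pbrm1 cKO replicate 1 (0.0561) or Pbrm1 cKO replicate 3 (0.072), and the Adh5 call without Pbrm1 cKO replicate 1 (0.0536) or 2 (0.0756).

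The list for synthesis and clearance held 4 tested genes, of which Aldh1a3 was higher, with a median of 0.41. Cyp26a1, an enzyme that degrades retinoic acid and a known target of it, had 9.62, 128 and 86.5 normalized counts in WT, against 7.89, 16.8 and 28.1 in Pbrm1 cKO. WT replicate 1 sat within the Pbrm1 cKO range, while the other WT libraries were above it. The endothelial sum lay likewise (120 CPM in WT replicate 1, 342 and 297 in the other WT libraries), and its part was not tested. The gene did not pass with all libraries (log2 fold change -2.08, SE 1.02, adjusted p = 0.112) and did without WT replicate 1 (-2.60, adjusted p = 1.85e-08). Cyp26b1, a related enzyme, had 255 normalized counts in WT and 226 in Pbrm1 cKO (-0.18, adjusted p = 0.657), and was called lower without WT replicate 1 (-0.44, adjusted p = 0.0274). DESeq2 thus called 0 genes of this list lower, although Cyp26a1 had an unadjusted p of 0.0419, while edgeR called Cyp26a1 (adjusted p = 0.0493) and limma voom called 0.

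Receptor partners and cofactors were higher for 7 of 8 tested genes, with a median of 0.47. In the test against 0.58 (log2) with a threshold of 0.1, 1 was called higher. The leukocyte and epithelial sums were also higher in every Pbrm1 cKO library than in any WT library, and their part was not tested. DESeq2, edgeR and limma voom each called 0 of them lower, and the DESeq2 log2 fold change was above 0 for each of the 8. The coactivator Ncoa3 went from 762 to 1228 normalized counts (log2 fold change 0.69, adjusted p = 1.76e-09). Log2 fold changes of Ncoa1 (0.60), Rxrb (0.47), Ppard (0.47), Ncoa2 (0.42) and Ncor1 (0.29) were smaller, with adjusted p-values of 0.00257, 0.0378, 0.0094, 0.0256 and 0.00429. The count of 7 was 8 without WT replicate 1, where Rxra (0.27, adjusted p = 0.195) was also called (0.46, adjusted p = 0.000184), and 3 to 5 without any other library. Together Rxra, Rxrb and Rxrg summed to 17.2 ± 3.9 RPKM in WT and 21.9 ± 1.54 in Pbrm1 cKO (exact permutation p = 0.2, two-sided).

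Of 9 tested genes known as retinoic acid targets, 2 were higher and 1 was lower, with a median of 0.31. The homeobox genes Meis1 (log2 fold change 0.45, adjusted p = 0.0141) and Meis2 (0.63, adjusted p = 0.00107) rose, and Rarres2, which encodes the chemoattractant chemerin, had 160, 333 and 330 normalized counts in WT, against 159, 151 and 141 in Pbrm1 cKO (-0.87, adjusted p = 0.00386). WT replicate 1 lay next to the Pbrm1 cKO libraries, as it did in the endothelial sum, whose part was not tested. The Rarres2 call was lost without WT replicate 2 (adjusted p = 0.0631), and the Meis1 call without WT replicate 2 or 3 or Pbrm1 cKO replicate 2 or 3 (adjusted p of 0.0501 to 0.0891). Tgm2, a transglutaminase gene and the most abundant of these targets, had 20288 ± 4470 normalized counts in WT and 17317 ± 1191 in Pbrm1 cKO (-0.23, adjusted p = 0.252).

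**Figure D4:**
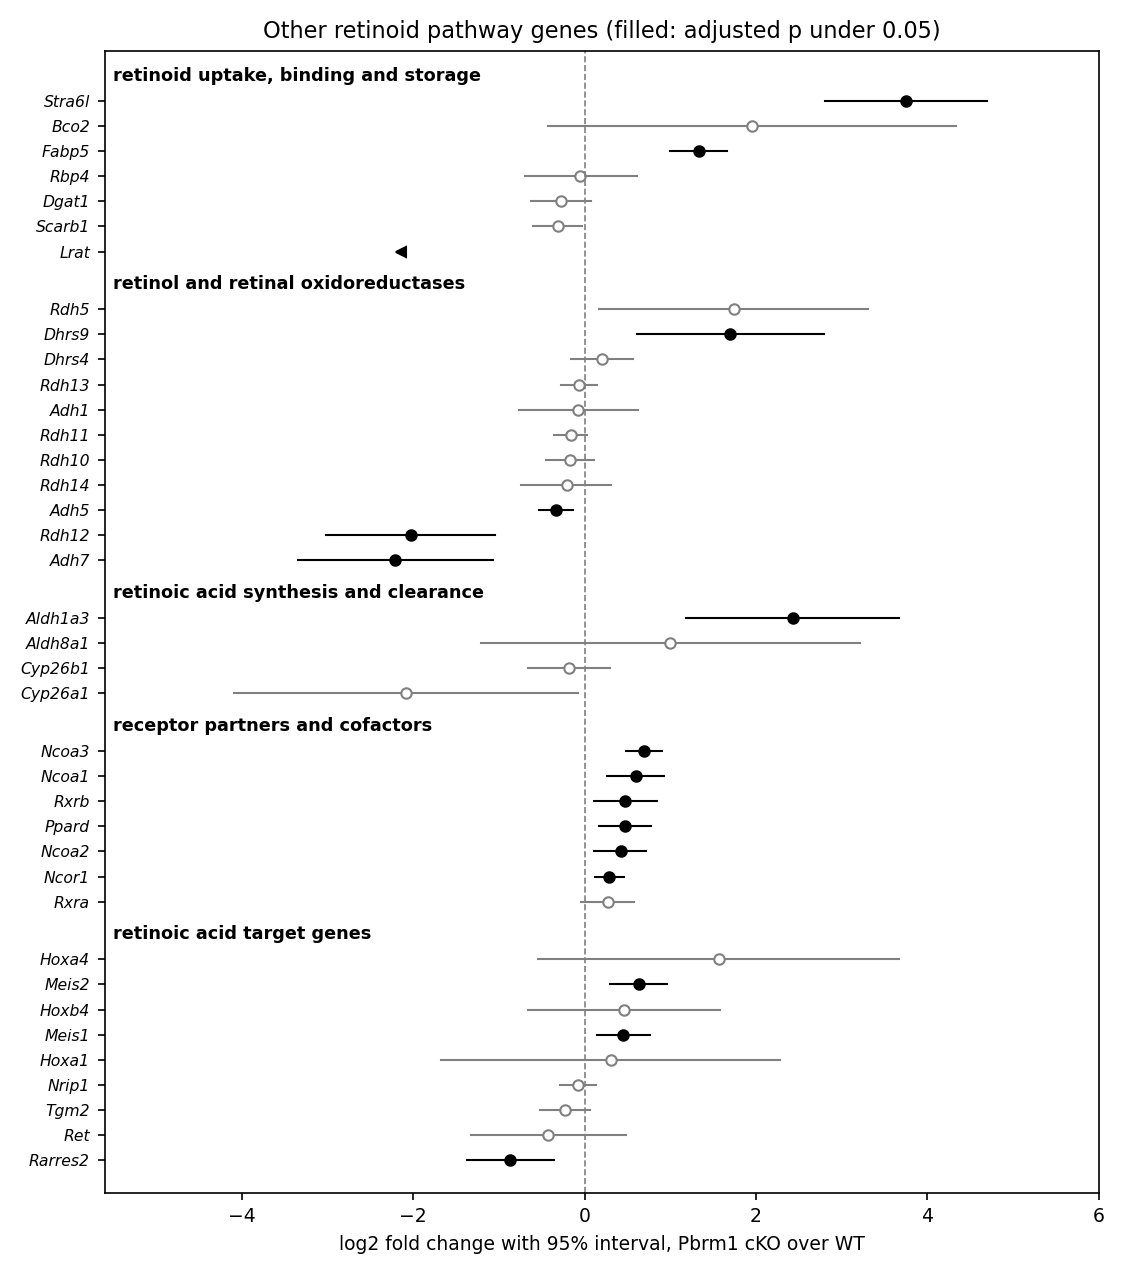
Log2 fold change with 95% interval, Pbrm1 cKO over WT, of 38 of the 40 tested genes of the 5 other retinoid pathway lists; filled points passed an adjusted p of 0.05, and the triangle of Lrat is a bound against a floor of 3 counts. Points of the partners and cofactors lie to the right of 0, and the other lists fall on both sides.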

How the data were processed

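RNA-seq reads of 6 libraries (3 WT, 3 Pbrm1 cKO, grouped by GEO's labels) were trimmed with cutadapt and mapped to GRCm38 with HISAT2 by the authors. Counting used featureCounts 1.6.4 with GENCODE mouse release 18 and was strand-specific. The authors deposited the raw count of each gene per library, with no normalization and replicates kept apart. The labels and the study's methods name different library kits (transcript depletion and poly(A) selection). Symbols were matched for 54079 of 54232 IDs (99.7%) with GENCODE release 21.

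DESeq2 1.42.0 in R 4.3.3 was run on all genes with a count (Wald test, median-of-ratios size factors, independent filtering, unshrunken log2 fold changes of Pbrm1 cKO over WT, no covariates), with Benjamini-Hochberg adjustment over the 17474 genes tested and a threshold of 0.05. Adjusted p-values are from DESeq2 unless another tool is named. Values are DESeq2 normalized counts, mean ± SD with n = 3 per group, and RPKM is the normalized count per gene length and per mean library size, so library scaling rests on the size factors. The floor was 3 counts per library. Exact permutation tests used SciPy 1.17.1. The alternatives were TMM size factors, edgeR 4.0.16 (quasi-likelihood), limma 3.58.1 (voom), other low-count filters, an adjusted p of 0.1, a test against 0.58 on the log2 scale with a threshold of 0.1, the replicate number as a block, and leaving out each library. The code was tested on simulated data. Besides the 9 genes and Pbrm1, the text names pathway genes past the threshold or needed for a count, leading markers, and the 3 genes with the profiles nearest to those of the called genes with the lowest and the highest fold change. The result of 2 pathway genes is not reported here, although the list counts include them. The members and lists were chosen with earlier results of these data known.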

Additional observations from a re-analysis of the deposited data

How the results depend on the processing

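The directions of Crabp1, Aldh1a1, Aldh1a2 and Rarb and their calls held under all 14 alternatives, each at its own threshold, with log2 fold changes of -3.28 to -3.09, -2.65 to -1.96, -0.83 to -0.77 and -3.12 to -2.48. The alternative after the study's fold changes the fold and the threshold together, testing against 0.58 (log2) with a threshold of 0.1, and there Aldh1a2 had an adjusted p of 0.0525, which would not pass 0.05. Dhrs3 ranged from 0.85 to 1.34 and lost its call in the test against 0.58 (adjusted p = 0.363), as did Rarg, which also lost it without 3 of the libraries. Crabp2 kept its direction (-1.37 to -0.66) in the 11 alternatives that could give a value, and 3 dropped it for low counts. Without WT replicate 1, Stra6 turned to 0.17 and Rara gained a call. The count of retinoid genes called lower was 4 or 5, and leaving out 1 library gave 1 to 2 called higher (2 without WT replicate 1). Over all genes, leaving out 1 library gave 1923 to 2915 genes called higher and 1790 to 2660 called lower. Across settings, 50.3% to 55.4% of called genes were higher (main 51.1%), and the median of all genes tested stayed within -0.007 to 0.014.

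The test against 0.58, with its threshold of 0.1, called 699 genes higher and 563 lower, and of the retinoid genes 0 higher (Dhrs3 had an unadjusted p of 0.031). Under it, the lists had 1 lower for uptake, binding and storage, 0 higher for oxidoreductases, 1 higher for partners and cofactors, and 0 higher and 0 lower for target genes. For uptake, binding and storage, edgeR, limma voom and filterByExpr before DESeq2 each gave 1 lower, and leaving out 1 library 0 to 2. For oxidoreductases, an adjusted p of 0.1 gave 2 higher, and leaving out 1 library 0 to 1. For synthesis and clearance, edgeR gave 1 lower, and leaving out 1 library 0 to 2. For partners and cofactors, leaving out 1 library gave 3 to 8 higher. Target genes had 1 to 2 higher and 0 to 1 lower when 1 library was left out. The cause of these changes was not tested.

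The labels give both groups the same replicate numbers, but same-numbered libraries did not deviate together (correlations 0.0401, -0.0388 and -0.000927). This check gave no sign of pairing but cannot exclude it, because Pbrm1 cKO libraries differed little from each other. With the replicate block, the counts were 1 lower for uptake, binding and storage, 0 higher for oxidoreductases, 1 lower for synthesis and clearance (Cyp26a1, adjusted p = 0.00575) and 1 higher for target genes, and of the retinoid genes 5 were lower and 1 higher.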
